A study of Arabidopsis thaliana with 4 samples.

Results

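Cytochrome P450 genes of Arabidopsis thaliana were compared between seedlings of the css1 mutant and of the wild type (WT). The genes were chosen by symbol, as probe sets that the platform annotation assigns to a single gene named CYP followed by a family number, a letter and a gene number. This rule found 21 genes among the 22746 probe sets tested. Each of the 21 was measured by 1 probe set, and none of these probe sets has an ID suffix for probes shared by several transcripts. The reference annotation (RefSeq, assembly TAIR10.1) has 225 genes with such a symbol in 40 families, so the genes described are a small and uneven part of the superfamily. Of the 21 genes, 17 belong to family CYP71, all of them in its subfamily B, and families CYP51, CYP78, CYP79 and CYP84 had 1 gene each.

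Plant cytochrome P450 enzymes are mostly membrane-bound haem proteins of the endoplasmic reticulum that use oxygen and electrons from a reductase to hydroxylate or otherwise oxidise small molecules. They act in the synthesis and breakdown of hormones, sterols, phenolics, glucosinolates, indole phytoalexins and volatile terpenes. Family CYP71 has expanded in plants mostly through local duplication, and its members include enzymes of defence compounds, while the substrates of many CYP71B enzymes have not been assigned.

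The css1 group was 2 arrays from css1 mutant seedlings and the WT group 2 arrays from Columbia wild-type seedlings, each array from an independent RNA sample. All seedlings were 9 days old and had grown in continuous light on 0.8% agar plates containing 2% sucrose. RNA came from whole seedlings, so fewer cells of a type and less RNA per cell cannot be told apart. Neither the mutated gene nor the allele of css1 is named in the labels, so that gene was not examined. The values are log2 RMA signals of 1-colour Affymetrix arrays, in which a difference of 1 is a 2-fold change.

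The arrays correlated at 0.997 within css1 and 0.996 within WT across probe sets, and at 0.982 to 0.986 between genotypes. Array medians lay between 6.32 and 6.37. The median standard error (SE) of a difference was 0.10 log2 units, a precision that the number of arrays limits. Among the genes listed as tissue markers, only 1 of 17 shoot and leaf genes and 3 of 15 root genes had a named probe set. Of the 11 seed genes and the 6 pollen and anther genes, 0 had one. The rubisco activase gene RCA, the measured shoot marker, was at 13.50 and 13.45 in css1 and 13.68 and 13.73 in WT (difference −0.23, adjusted p = 0.128). The root markers did not move one way, as PYK10, a root beta-glucosidase gene, was higher in css1 by 0.50 (limma, adjusted p = 0.0199), while the root hair expansin genes EXPA18 and EXPA7 had differences of −0.51 (adjusted p = 0.0858) and −0.33 (adjusted p = 0.123). Summed over the 3 root markers, the log2 signal was 26.2 and 25.9 in css1 and 26.7 and 26.1 in WT. This sum offsets PYK10 against the expansin genes, so it does not measure the share of root. The part of these markers in the P450 results was not tested.

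The clearest P450 change was a fall of CYP71B22 (AT3G26200), a CYP71B gene whose substrate is not assigned here. Its signal was 5.68 and 6.13 in the css1 arrays, against 7.98 and 7.72 in the WT arrays. Both css1 values lay below both WT values, by a gap of 1.59 that exceeded the spread within either genotype. The mean was 5.91 ± 0.32 in css1 and 7.85 ± 0.18 in WT (SD, n = 2 each). The log2 difference was −1.94 (SE 0.17, 95% interval −2.37 to −1.51), a 3.85-fold fall, with a Benjamini-Hochberg adjusted p = 0.00361 by limma over all probe sets. Among the 22746 probe sets this was the 19th largest fall.

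CYP71B35 (AT3G26310) fell less. It was at 5.13 and 5.23 in css1 and at 5.81 and 5.83 in WT, with no overlap and little spread in either genotype (SD 0.072 in css1 and 0.012 in WT, n = 2 each). The log2 difference was −0.64 (SE 0.088, 95% interval −0.86 to −0.43), a 1.56-fold fall (limma, adjusted p = 0.0106). With css1 replicate 1 left out the gene no longer passed (−0.59, adjusted p = 0.0817), and likewise with css1 replicate 2 left out (−0.69, adjusted p = 0.0708), at differences of similar size.

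CYP71B26 (AT3G26290) was the P450 gene that rose. Its css1 signals were 9.21 and 9.10, and its WT signals were 8.44 and 8.67. The groups did not overlap, and the WT arrays differed from each other more than the css1 arrays. The log2 difference was 0.59 (SE 0.11, 95% interval 0.32 to 0.87), a 1.51-fold rise (limma, adjusted p = 0.0226). This call depended on which arrays were kept, while the difference stayed between 0.48 and 0.71 with each array left out. It did not hold when css1 replicate 1 (0.54, adjusted p = 0.136), css1 replicate 2 (0.65, adjusted p = 0.112) or WT replicate 1 (0.48, adjusted p = 0.0511) was left out. It held when WT replicate 2 was left out (0.71, adjusted p = 0.0286). The rise also did not pass with the replicate number as a block (adjusted p = 0.0745).

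**Figure D1:**
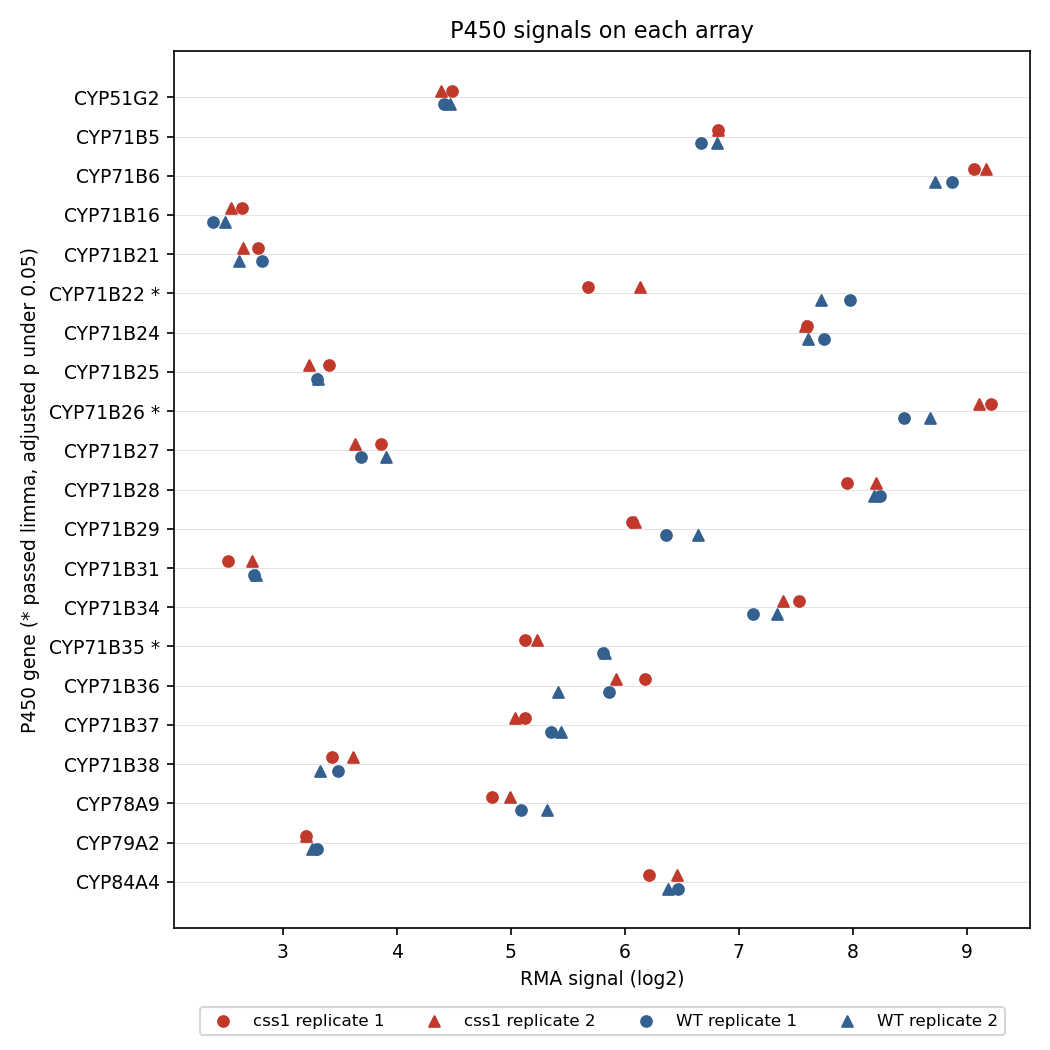
Log2 RMA signal of each of the 21 P450 genes (rows) on the 2 css1 arrays (red) and the 2 WT arrays (blue), with circles for replicate 1 and triangles for replicate 2. The css1 points of CYP71B22 (5.68 and 6.13) stand far to the left of its WT points (7.98 and 7.72), and for most other genes the points of both genotypes lie close together.

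In all, 3 of the 21 genes passed, 1 higher and 2 lower in css1. Over all probe sets 15.6% passed, with 7.63% higher and 8.01% lower, so the share of P450 genes called (14.3%) was near the background. At an unadjusted p under 0.05 there were 7 of 21 P450 genes (33.3%), beside 31.7% of all probe sets. The css1 and WT values did not overlap for 14 of the 21 genes (6 higher, 8 lower), which is 66.7% beside 60% of all probe sets. The median difference of the 21 genes was −0.049, and that of all probe sets was −0.025. The median size of a difference without its sign was 0.13 for the P450 genes and 0.16 for all probe sets. All of these shares were near those of the background, so the counts are no result about P450 genes as a group.

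**Figure D2:**
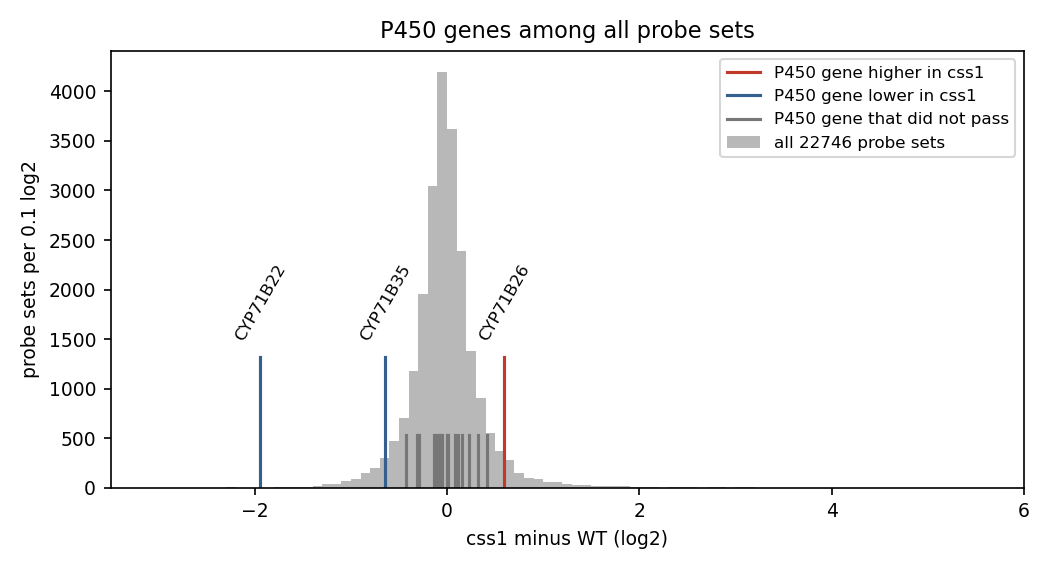
Histogram of the css1 minus WT difference (log2) over all 22746 probe sets (grey bars, probe sets per 0.1 log2), with a vertical line at the difference of each P450 gene (red for higher in css1, blue for lower, dark grey for those that did not pass). The height of the lines has no scale. CYP71B22 at −1.94 lies in the lower tail, and the 18 lines of genes that did not pass lie between −0.42 and 0.41.

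The 18 genes that did not pass had differences between −0.42 and 0.41, and 13 of them differed by less than 0.25 in either direction. Their 95% intervals together ran from −0.71 to 0.83, so for all 18 a 2-fold change of the signal in either direction lay outside the interval. Of the 18, 8 had mean signals below the 30th percentile of all probe sets. For these weak signals the interval does not bound the change of the transcript. For 4 of the 18 the interval, which is not adjusted for the number of genes, lay on one side of 0. These were CYP71B29, CYP71B37, CYP71B6 and CYP78A9.

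**Figure D3:**
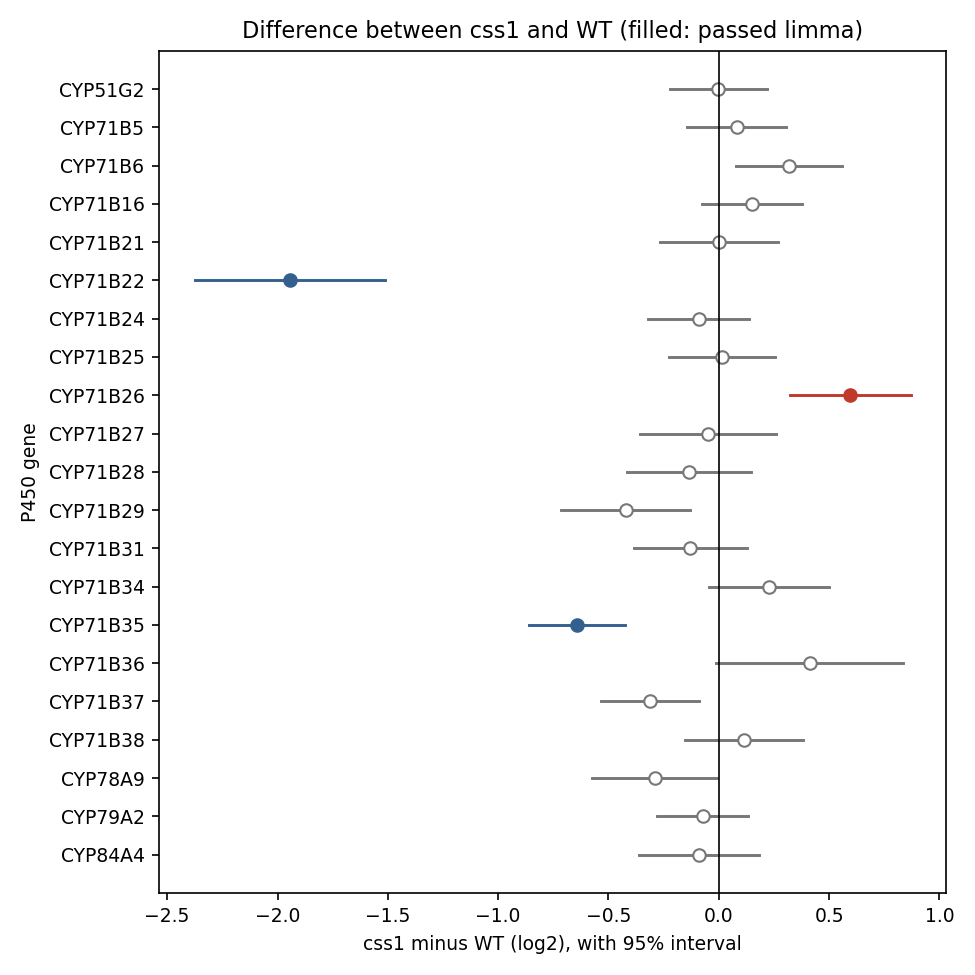
Difference in mean log2 signal, css1 minus WT, for each P450 gene (rows), with its 95% interval from limma as a bar. Filled points passed the test (CYP71B26 higher, CYP71B22 and CYP71B35 lower), and open points did not.

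Most of the CYP71B genes without an assigned substrate had small differences. CYP71B29 (AT1G13100) was at 6.07 and 6.09 in css1, against 6.36 and 6.64 in WT, a difference of −0.42 (SE 0.12) that did not pass (limma, adjusted p = 0.0646). Its css1 arrays nearly coincided, and the spread lay in the WT arrays. The difference was −0.57 without WT replicate 1, whose value is the nearer to css1, and −0.28 without WT replicate 2. Without css1 replicate 1 it was −0.41, and without css1 replicate 2 it was −0.43.

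CYP71B37 (AT3G26330) was at 5.13 and 5.04 in css1 and 5.36 and 5.44 in WT, with no overlap (−0.31, adjusted p = 0.0689). CYP71B36 (AT3G26320) had the largest positive difference among the genes that did not pass, with 6.18 and 5.93 in css1 against 5.86 and 5.42 in WT (0.41, SE 0.17, adjusted p = 0.167). Its WT arrays were 0.45 apart, as wide as the difference itself. The difference was 0.64 without WT replicate 1, whose value is the nearer to css1, and 0.19 without WT replicate 2. Without css1 replicate 1 it was 0.29, and without css1 replicate 2 it was 0.54. CYP71B34 (AT3G26300) was at 7.53 and 7.39 in css1 and 7.13 and 7.33 in WT (0.23, adjusted p = 0.228).

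Apart from CYP71B6, described below, the remaining CYP71B genes above the 30th percentile of mean signal were close to even between genotypes. CYP71B28 (AT1G13090) was at 7.94 and 8.21 in css1 and 8.24 and 8.18 in WT, with overlapping groups (−0.13, adjusted p = 0.482). CYP71B24 (AT3G26230) was at 7.59 and 7.58 in css1 and 7.75 and 7.61 in WT (−0.091, adjusted p = 0.564). CYP71B5 (AT3G53280) was at 6.818 and 6.817 in css1 and 6.67 and 6.80 in WT (0.081, adjusted p = 0.608). For CYP71B5 and CYP71B24 the groups were apart by only 0.012 log2 units, less than the spread of the WT arrays.

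For 5 of the 21 genes a role had been set out in a list by pathway. Of these 5, 0 passed limma's threshold and 2 had an unadjusted p under 0.05, beside 15.6% and 31.7% of all probe sets. With 5 genes these counts are no result about the roles. CYP71B6 (AT2G24180), which metabolises indole-3-acetonitrile in the branch of indole defence compounds, was at 9.06 and 9.16 in css1, against 8.86 and 8.72 in WT. Both css1 values were above both WT values, but the difference of 0.32 (SE 0.098) did not pass (limma, adjusted p = 0.0821, and 0.0587 to 0.355 over the alternatives).

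CYP78A9 (AT3G61880), of a family that promotes the growth of organs such as fruits and seeds, was at 4.83 and 4.99 in css1, against 5.09 and 5.31 in WT. The css1 values were the lower ones, by −0.29 (SE 0.11), and the gene did not pass (limma, adjusted p = 0.148). CYP84A4 (AT5G04330), which takes part in making arabidopyrones from a phenylpropanoid precursor, was at 6.22 and 6.45 in css1 and 6.47 and 6.38 in WT. Its groups overlapped (−0.090, 95% interval −0.36 to 0.18, adjusted p = 0.643).

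CYP79A2 (AT5G05260), which converts phenylalanine to its aldoxime for benzylglucosinolate, was at 3.21 and 3.21 in css1 and 3.31 and 3.26 in WT (−0.074, adjusted p = 0.608). CYP71B31 (AT3G53300), an enzyme of volatile terpene oxidation described in flowers, was at 2.52 and 2.74 in css1 and 2.75 and 2.76 in WT (−0.13, adjusted p = 0.460). Both had low signals in every array, below the 30th percentile given next. The other 10 of the 15 role lists, among them those for brassinosteroids, gibberellins, abscisic acid, cytokinins, jasmonate, cutin and wax, and the response to foreign compounds, had 0 genes among the 21.

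The partner lists named 116 genes, and 6 of them were measured. Of these 6 genes, 0 passed limma's threshold and 0 had an unadjusted p under 0.05, beside 15.6% and 31.7% of all probe sets. With so few genes these counts are no result about the pathways. UGT74B1, a glucosyltransferase of glucosinolate synthesis, was at 9.21 and 9.19 in css1, against 8.94 and 9.14 in WT (0.16, adjusted p = 0.353). HCT, a hydroxycinnamoyl transferase of the phenylpropanoid pathway, was at 9.83 and 9.80 in css1, against 9.95 and 10.11 in WT (−0.22, adjusted p = 0.188). The other 4 were BCAT4 (0.19, adjusted p = 0.455), of methionine chain elongation, FMO (0.15, adjusted p = 0.432), a flavin monooxygenase gene, AOP3 (−0.030, adjusted p = 0.888), of glucosinolate side-chain modification, and CCR2 (−0.14, adjusted p = 0.629), a cinnamoyl-CoA reductase gene.

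The other low signals were nearly flat. Of the 21 genes, 13 had a mean signal at or above the 30th percentile of all probe sets (4.73) and 8 lay below it. The differences of these 8 were between −0.13 and 0.15. Of the 8, 0 passed limma's threshold or had an unadjusted p under 0.05, beside 15.6% and 31.7% of all probe sets. Of the 13 others, 3 passed (23.1%), beside 24.6% of the probe sets kept by a filter at that percentile. With 8 genes the count is no result about weak P450 genes. Besides CYP79A2 and CYP71B31 the 8 were CYP71B16, CYP71B21, CYP71B25, CYP71B27, CYP71B38 and CYP51G2. No detection calls were used, so whether these transcripts were present is not known.

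CYP71B16 (AT3G26150) was at 2.64 and 2.55 in css1 and 2.39 and 2.50 in WT (0.15, adjusted p = 0.329), the only positive difference of these 8 with no overlap. CYP71B21 (AT3G26190), CYP71B25 (AT3G26270) and CYP71B38 (AT3G44250) had differences of −0.00039, 0.014 and 0.11, with overlapping groups. CYP51G2 (AT2G17330), a relative of the sterol demethylase CYP51, and CYP71B27 (AT1G13070) are annotated as transcribed pseudogenes. They had differences of −0.0020 and −0.049.

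The 3 genes that passed all lie in a single run of CYP71B genes on chromosome 3. In gene order this run holds 18 CYP71B loci, from CYP71B16 to CYP71B37, with 6 other loci between them, and 10 of the 21 genes belong to it. Of these 10, 3 passed, beside 15.6% of all probe sets. With 10 genes this count is no result about the run. Its members did not move together. Of the 10, 5 had a positive and 5 a negative difference, with a median of 0.0069. The sign changed between 5 of the 9 pairs of successive measured genes. These counts include the weak signals of CYP71B16, CYP71B21 and CYP71B25. The differences of CYP71B21 (−0.00039) and CYP71B25 (0.014) were near 0 and changed sign under at least 1 alternative each. At the end of the run CYP71B26 (0.59) and CYP71B34 (0.23) were followed by CYP71B35 (−0.64), CYP71B36 (0.41) and CYP71B37 (−0.31). The differences between these neighbours were not tested.

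Of the 20 nearest loci with a named probe set, 10 on each side of the run, 0 passed limma's threshold and 6 had an unadjusted p under 0.05. Their median difference was −0.069. The shares of all probe sets with 1 named gene were 13.7% and 28.9%, and with 20 loci these counts are no result about the surroundings. Around the other CYP71B loci among the 21 genes, taken in the same way, between 0 and 3 of 20 nearest loci passed, and 13.7% of all probe sets with 1 named gene did. The run was described after its values were seen, and its count of calls was not tested against that of its surroundings. A shorter run on chromosome 1 held CYP71B27, CYP71B28 and CYP71B29 among 5 CYP71B loci, and all 3 had negative differences. Of these 3, 0 passed limma's threshold and 1 had an unadjusted p under 0.05, beside the same 13.7% and 28.9%. With 3 genes these counts are no result about that run. CYP71B5 and CYP71B31 belong to a run of 4 CYP71B loci elsewhere on chromosome 3. Genes of such runs are similar in sequence, and no probe sequences were used here, so signal from a neighbouring copy in a probe set cannot be told apart from that of the named gene.

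**Figure D4:**
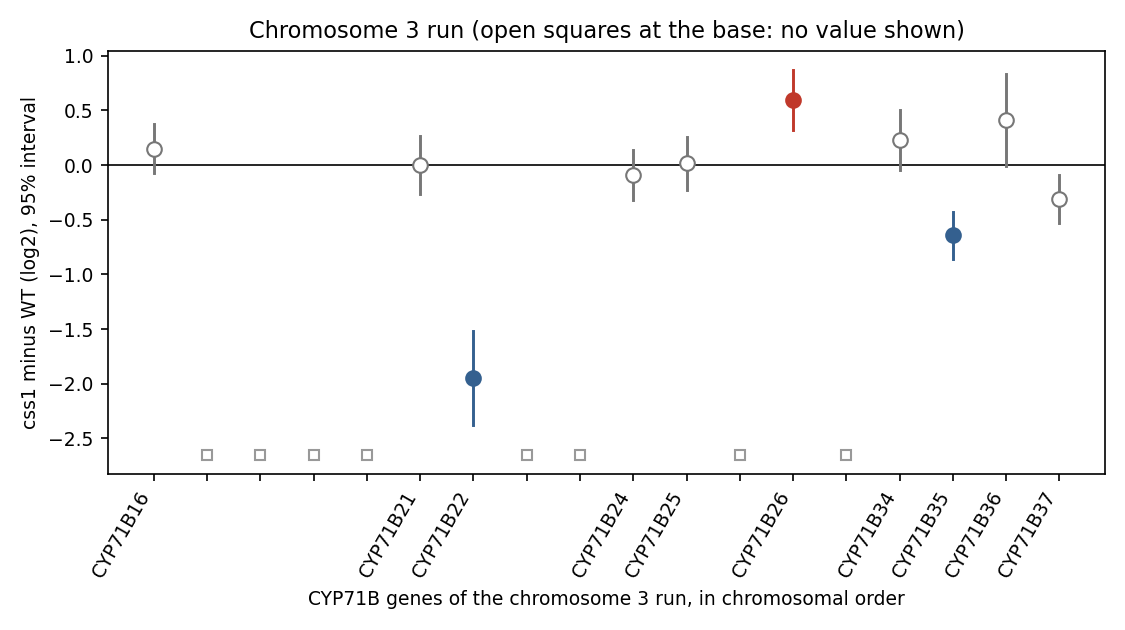
Difference css1 minus WT (log2) with its 95% interval for the 10 measured CYP71B genes of the chromosome 3 run, placed in chromosomal order with equal spacing. Open squares along the base mark the 8 CYP71B loci of the run for which no value is shown, and the 3 filled points passed the test, CYP71B22 and CYP71B35 below 0 and CYP71B26 above it.

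Another 4 probe sets with P450 names fell outside the rule, and their values were seen before they were chosen for mention. The probe set shared by CYP71B19 and CYP71B20 of the chromosome 3 run was at 8.43 and 8.60 in css1, against 8.60 and 8.79 in WT (−0.18, adjusted p = 0.342). CYP718, whose name has no subfamily letter, had a difference of −0.29 (adjusted p = 0.255), CYP71B30P one of −0.093 (adjusted p = 0.525), and the probe set shared by CYP79C2 and AT1G58265 one of −0.12 (adjusted p = 0.644). None of these 4 passed limma's threshold, and 0 had an unadjusted p under 0.05, beside 15.6% and 31.7% of all probe sets.

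Leaving out arrays separated the 3 calls. CYP71B22 passed without each array in turn, with differences between −2.17 and −1.71 (adjusted p = 0.0139 to 0.0189). Without either css1 array it was the only P450 gene that passed, and the share of all probe sets called was then 2.90% without css1 replicate 1 and 2.46% without css1 replicate 2. Without WT replicate 1 the genes that passed were CYP71B22, CYP71B29, CYP71B35 and CYP71B36, with 13.5% of all probe sets called. Without WT replicate 2 they were CYP71B22, CYP71B26 and CYP71B35, with 9.79% of all probe sets called.

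**Figure D5:**
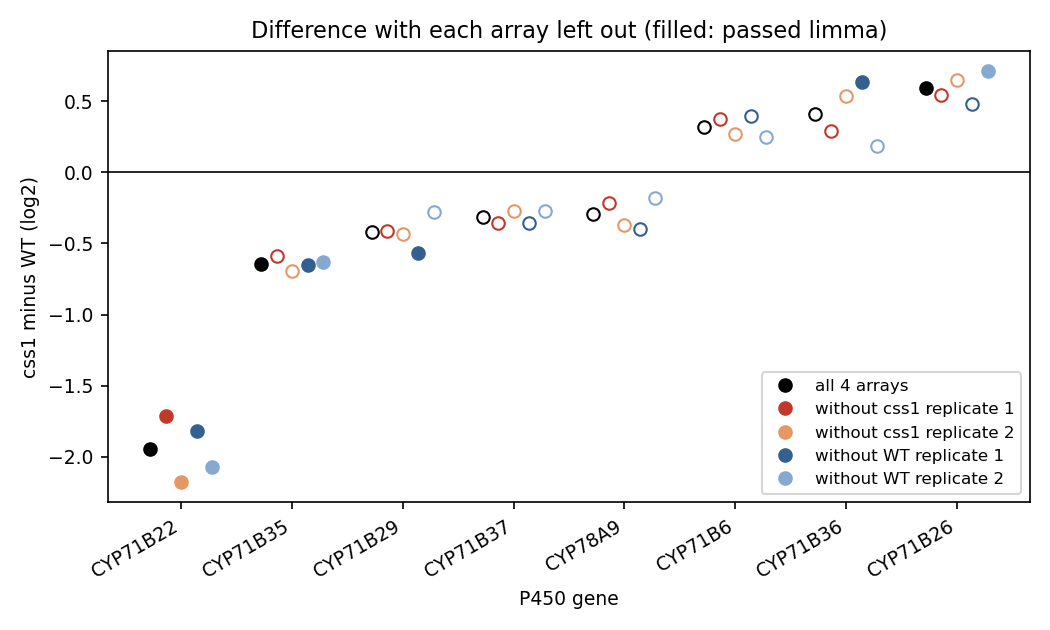
Difference css1 minus WT (log2) of 8 P450 genes with all 4 arrays (black) and with each array left out (colours), for genes with an unadjusted p under 0.05 or a call in any setting. Filled points passed the test and open points did not. CYP71B22 is filled throughout, and the other genes are open in at least 1 setting.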

How the data were processed

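Seedling RNA of css1 and WT, 2 samples each, was hybridised to 1-colour Affymetrix arrays. The authors deposited log2 signals, and the submitters' processing notes name RMA as the tool. The sources used here give neither its version nor detection calls. RMA adjusts for background and quantile-normalizes, which can compress changes of weak transcripts. Nothing further was applied.

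The 64 control probe sets were set aside. The platform annotation names 1 gene for 13513 of the remaining probe sets, several for 503, and does not list 8730. Gene IDs matched RefSeq loci for 13436. Another gene with a symbol of this kind is not reported here.

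css1 was compared with WT in R 4.3.3 with limma 3.58.1 (two-sided, by lmFit followed by eBayes), with Benjamini-Hochberg adjustment over 22746 probe sets and a threshold of 0.05. The script was tested on simulated data. Errors are SD or limma's SE. Genes were named by rule: up to 12 rises and 12 falls that passed without overlap, up to 4 genes per list by smallest p, and the extremes of families with at least 3 genes. The others are given to account for every gene. The genes, lists and tests were chosen with earlier results of these data known, and the runs of neighbouring genes after seeing the values. Runs join CYP71B loci at most 10 loci apart. The pathway list names LCR and FATB belong to other genes and were dropped. The lists of redox partners, of P450 genes under other symbols, of brassinosteroid and sterol genes and of mitochondrial stress regulators had 0 measured genes. Promoter motifs were not analysed here.

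Same-numbered arrays did not deviate together (correlation −0.0061 across probe sets), so the numbers were not taken as pairs. Alternatives were a filter at the 30th percentile, trend or robust eBayes, median centring, a second quantile normalization, array weights, a replicate block, no shared-probe sets, 1 probe set per gene, a stricter threshold of 0.01, a minimum fold of 2 and leaving out each array.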

Additional observations from a re-analysis of the deposited data

How the results depend on the processing

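The rise of CYP71B26 and the falls of CYP71B22 and CYP71B35 passed with the filter, eBayes trend or robust, centring, a second quantile normalization, array weights, without shared-probe sets and with 1 probe set per gene. With the replicate number as a block, CYP71B26 did not pass (0.59, adjusted p = 0.0745), which left 0 genes higher and 2 lower, while 1264 probe sets in all were called, against 3559 with no block. The block takes up 1 of the residual degrees of freedom. At an adjusted p under 0.01, and also with a fold of at least 2, limma called 0 genes higher and 1 lower, so 1 of family CYP71, with 7 genes at an unadjusted p under 0.05. Over all probe sets, 3.40% passed at 0.01 and 2.50% with the minimum fold. With each array left out in turn, 0 to 1 genes were higher, 1 to 3 lower, and 1 to 4 of family CYP71 passed, while the share of all probe sets called ranged from 2.46% to 13.5%. With 1 array left out, the lone array is assumed to vary like the other genotype. The other families had 0 calls throughout, with at most 1 gene at an unadjusted p under 0.05 in the full fit.

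The sign changed only for genes near 0 that passed nowhere. CYP71B21 and CYP51G2 were at 0.040 and 0.038 with centring and at 0.0060 and 0.0094 with a second quantile normalization. With arrays left out in turn, the differences ran from −0.10 to 0.10 for CYP71B21, −0.050 to 0.046 for CYP51G2, −0.16 to 0.066 for CYP71B27, −0.073 to 0.10 for CYP71B25 and −0.21 to 0.030 for CYP84A4. Centring moved the differences of all genes by the same amount. With an array left out, the mean of its genotype was the value of the other array. What moved the differences under the second quantile normalization was not tested.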
